A study of Mus musculus with 4 samples.

Results

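Mitotic unprimed multipotent cells were examined among LSK cells, the Lin−Sca1+cKit+ cells of mouse bone marrow that hold hematopoietic stem cells and multipotent progenitors. The cells were chosen by their own counts of unique molecular identifiers (UMIs, each of which stands for 1 captured transcript). A barcode was kept with at least 1000 UMIs, at most 10% of UMIs from mitochondrial genes, and no other library holding the same barcode at 3 times or more its UMIs. Members had at least 5 of 10000 UMIs from Mki67, Top2a, Cenpf and Ube2c together. They also had under 5 of 10000 from Elane, under 5 from Mpo, Ctsg and Prtn3 together, under 2 from Pf4, under 3 from Car1, under 3 from Dntt and no UMI of Cd79a. This gave 1618 cells, 11.6% of the 13892 cells kept and 6.41% of the 25242 deposited barcodes. The control libraries held 377 and 70 of them and the knockout libraries 260 and 911. Cells that passed every lineage limit are called unprimed, a name that covers only the genes of those limits. The 1949 unprimed cells under the mitotic threshold are called other unprimed cells.

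Control mice were Nup358 fl/fl, called wild-type in the labels, and Nup358 knockout mice were Nup358 fl/fl with R26-CreERT2, a tamoxifen-regulated Cre recombinase that deletes exon 2 in all tissues and not in blood cells alone. Per the study's methods, mice were 9 to 12 weeks old, and adult mice of this model received tamoxifen on 3 consecutive days. Each genotype had 2 libraries, and each library pooled sorted LSK cells from the marrow of 3 mice, so that the library is the replicate (n = 2 per genotype) and single mice cannot be told apart. The day of collection after tamoxifen is not given for these libraries in the sources used here. The 4 libraries held 60330267 and 25111828 UMIs (control) and 35986936 and 54850344 UMIs (knockout) over all deposited barcodes. The assay reads 3′ transcript ends, so counts of Ranbp2, the gene of Nup358, do not read the deleted exon and are no check of the genotype.

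During the cell cycle, DNA and its histones are made in S phase, and genes of chromosome segregation reach their highest levels in G2 and M phase. Mki67 coats mitotic chromosomes, Top2a untangles sister DNA, Cenpf binds the outer kinetochore and Ube2c charges the anaphase-promoting complex with ubiquitin. In blood formation most stem cells rest outside the cycle, while multipotent progenitors divide more often, and lineage genes such as Elane or Pf4 come up as progenitors become primed. Nup358, also called RanBP2, sits on the cytoplasmic filaments of the nuclear pore, binds Ran and SUMO-modified RanGAP1, and moves to kinetochores in mitosis.

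The libraries shared barcodes and differed in depth. Copied barcodes, left out because another library held them 3 times or more as deep, numbered 10936 over the 4 libraries, most of them in control replicate 2 (5595). After all limits, 7797 and 1193 cells of the controls and 1571 and 3331 of the knockouts were kept. Of the members, 22 and 68 control and 226 and 841 knockout cells carried a barcode that another library also held, and 1 barcode sequence was a member in 2 libraries. Median UMIs per member were 5582 and 17098 in controls and 21376 and 16415 in knockouts, so control replicate 1 stood apart as the shallowest. Median UMIs per other unprimed cell were 3044 and 9806 in controls and 12655 and 9287 in knockouts, and members exceeded them 1.69 to 1.83 times in the 4 libraries. Summed over members, the libraries gave 2277776 and 1211809 control UMIs and 5737513 and 16299011 knockout UMIs.

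The 4 mitotic markers chose the cells, and their values are given as a description. Per 10000 UMIs, the median member had 19.2 and 16.5 in controls and 13.6 and 15.4 in knockouts from the 4 genes together. All 4 genes were detected in 43.2% and 68.6% of control members and in 63.8% and 68.7% of knockout members, 1003 cells in all. Just inside the threshold, 16 and 2 control and 19 and 42 knockout members lay between 5 and 6 per 10000, with medians from 5.09 to 5.51. Just outside it, 37 and 7 control and 22 and 60 knockout unprimed cells lay between 4 and 5 per 10000, with medians from 4.27 to 4.49. In shallow cells few UMIs could decide, and 7 members passed on 1 UMI and 82 on 2 to 4 UMIs. Summed over members and scaled to counts per 1000000 UMIs (CPM), Mki67 had 583 and 484 CPM in controls and 359 and 339 CPM in knockouts. Top2a had 921 and 772 against 664 and 663 CPM, Cenpf 310.0 and 324 against 211 and 218 CPM and Ube2c 431 and 514 against 346 and 433 CPM in the same order of libraries, controls before the word against and knockouts after it. Mki67, Top2a and Cenpf were lower in both knockout libraries than in both control libraries, and Ube2c overlapped.

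**Figure D1:**
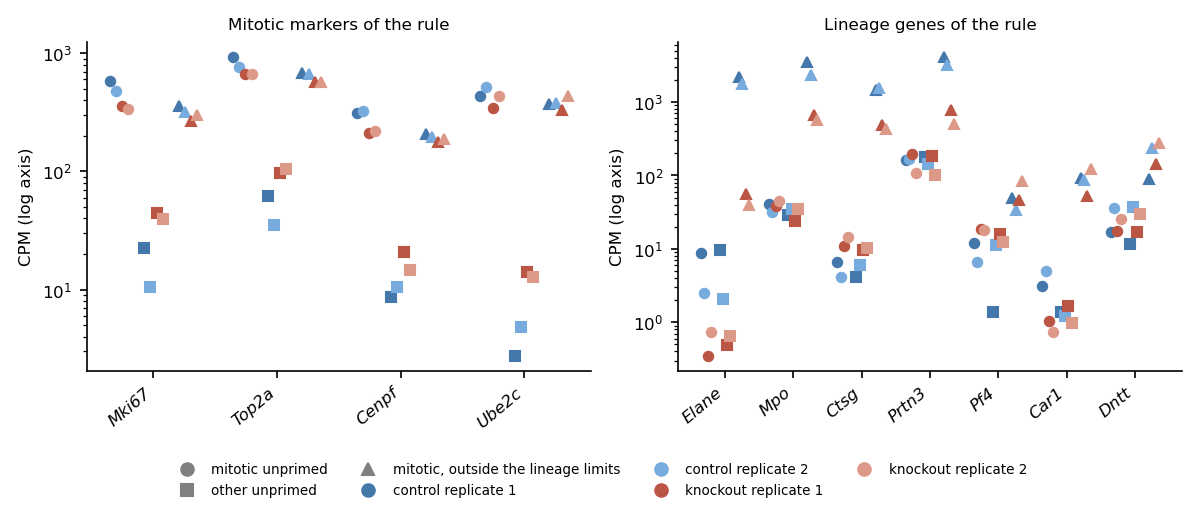
CPM of UMIs summed over 3 groups of cells in each library (log axis; circles, mitotic unprimed cells; squares, other unprimed cells; triangles, mitotic cells outside the lineage limits; colors, libraries) for the genes that define the cells. By construction the 4 mitotic markers are high in circles and triangles, and neutrophil genes such as Elane are high in triangles only, so the plot describes the selection and tests nothing.

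The label was checked against the genes of the sort. Kit, which encodes cKit, had 122 and 111 CPM in controls and 107 and 86.1 CPM in knockouts. Ly6a, which encodes Sca1, had 164 and 166 CPM in controls and 309 and 225 CPM in knockouts. Both transcripts were present in all 4 libraries. Markers of other cell types were present too. The 10 neutrophil genes summed to 2310.2 and 16918 CPM in controls and 259 and 345 CPM in knockouts, led by S100a8, although Elane, Mpo, Ctsg and Prtn3 were limited by the rule. The 8 erythroid genes summed to 662 and 7297 CPM in controls and 346 and 334 CPM in knockouts, led by Hbb-bt, and the 7 monocyte and dendritic genes to 777 and 129 CPM in controls and 446 and 259 CPM in knockouts. In controls a few cells carried most of the neutrophil and erythroid counts. Over the libraries, 17 and 5 members in controls and 4 and 6 in knockouts had at least 100 of 10000 UMIs from 1 such list. The erythroid list marked 3 and 3 cells of the controls and 0 and 0 of the knockouts, the neutrophil list 3 and 2 and 0 and 1, and the monocyte and dendritic list 11 and 0 and 4 and 5. Without these 32 cells the neutrophil sums were 269 and 243 CPM in control and 262 and 181 CPM in knockout libraries, and the erythroid sums 155 and 158 and 349.6 and 335 CPM. The monocyte and dendritic sums were then 181 and 102 CPM in controls and 151 and 167 CPM in knockouts. Most of the remaining neutrophil sum came from Prtn3 and Mpo, which the rule limits, at 165 and 166 against 196 and 109 CPM and 41.2 and 34.2 against 38.2 and 45.1 CPM. The neutrophil genes S100a8 and Ms4a3, which it does not limit, had 5.89 and 10.5 against 1.23 and 0.308 CPM and 36.3 and 17.5 against 13.4 and 10.9 CPM (controls against knockouts), lower in both knockouts. The higher erythroid sums of the knockouts came from Hbb-bt, whereas Gata1 and Klf1 were lower there, as given below. Members also carried lineage genes that the rule does not limit. In every library Gata1 and Klf1, 2 of 5 erythroid genes with a fold in all 4 libraries, were higher in members than in other unprimed cells. So were Itga2b and Gp1bb, 2 of 5 megakaryocyte genes. Gata1 had 22.5 and 9.88 against 8.93 and 5.87 CPM in other unprimed cells. In mitotic cells outside the lineage limits it had 9.49 and 6.36 against 8.14 and 12.4 CPM, below members in every library. Whether the 32 cells named above are doublets was not tested.

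Many cell cycle promoters carry CCAAT boxes, bound by NF-Y, and a cell cycle genes homology region of the letters TTTGAA or TTCGAA, bound by the DREAM and MuvB complexes. Because the members share high levels of such genes, the 120 bases before the annotated start are shown for the 4 markers that chose them and for 3 mitotic genes that did not. Sequences are from RefSeq on GRCm38.p6, with Mki67 at chr7:135716380-135716499 (minus strand), Top2a at chr11:99024190-99024309 (minus strand), Cenpf at chr1:189688087-189688206 (minus strand), Ube2c at chr2:164769809-164769928 (plus strand), Ccnb2 at chr9:70421555-70421674 (minus strand), Cdc20 at chr4:118437344-118437463 (minus strand) and Cdk1 at chr10:69352913-69353032 (minus strand). They read 5′ to 3′ on the gene's strand, and capitals mark CCAAT and also TTTGAA or TTCGAA on either strand, so that ATTGG and TTCAAA are the reverse letters.
Mki67: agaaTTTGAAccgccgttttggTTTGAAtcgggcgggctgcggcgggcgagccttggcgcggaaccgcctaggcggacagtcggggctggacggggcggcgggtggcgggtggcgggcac
Top2a: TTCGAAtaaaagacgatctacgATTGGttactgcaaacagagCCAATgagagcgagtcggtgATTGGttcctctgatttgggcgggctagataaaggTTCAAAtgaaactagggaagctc
Cenpf: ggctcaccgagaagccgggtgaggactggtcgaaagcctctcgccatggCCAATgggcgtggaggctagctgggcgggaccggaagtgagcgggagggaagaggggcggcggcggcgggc
Ube2c: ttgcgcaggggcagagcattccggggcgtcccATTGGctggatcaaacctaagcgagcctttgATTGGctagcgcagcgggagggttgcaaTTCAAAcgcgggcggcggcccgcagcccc
Ccnb2: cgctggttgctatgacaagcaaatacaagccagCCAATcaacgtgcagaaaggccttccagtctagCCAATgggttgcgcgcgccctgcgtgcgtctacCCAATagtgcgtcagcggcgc
Cdc20: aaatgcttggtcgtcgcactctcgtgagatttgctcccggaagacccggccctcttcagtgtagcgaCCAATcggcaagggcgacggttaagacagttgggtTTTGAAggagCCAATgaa
Cdk1: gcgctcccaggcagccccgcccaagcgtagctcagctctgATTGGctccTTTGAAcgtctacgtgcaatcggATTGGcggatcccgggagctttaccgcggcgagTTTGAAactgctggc
Ccnb2 encodes cyclin B2, Cdc20 the activator of the anaphase-promoting complex and Cdk1 the main mitotic kinase. In the order printed, the shown bases held 0, 3, 1, 2, 3, 2 and 2 CCAAT matches and 2, 2, 0, 1, 0, 1 and 2 matches of TTTGAA or TTCGAA, so that Mki67 had no CCAAT and Cenpf and Ccnb2 neither of the other letters there. Over the 250 bases before the start, 45 of 63 promoters of the 4 mitotic gene lists used below held CCAAT (71.4%), beside 33.8% of all 32851 promoters. At least 2 matches were in 28 of them (44.4%), beside 10.1% of all. TTTGAA or TTCGAA was in 22 (34.9%), beside 17.1% of all. The replication list had CCAAT in 19 of 27 promoters and TTTGAA or TTCGAA in 5. These are letter matches that do not overlap each other, with no measurement of binding.

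Members made up a larger share of the knockout libraries. They were 4.84% (95% exact binomial interval 4.37 to 5.33) and 5.87% (4.60 to 7.36) of the cells kept in controls and 16.6% (14.7 to 18.5) and 27.3% (25.8 to 28.9) in knockouts. The intervals cover counting error only. The groups did not overlap, with means of 5.35% ± 0.730 and 21.9% ± 7.64 (SD, n = 2), a difference of 16.6 percentage points. In an exact permutation test of the 4 libraries (two-sided) p was 0.333, the smallest that 2 libraries against 2 allow, so no share could pass 0.05. After each cell was thinned to 2000 UMIs, which left out 221 and 1 control and 68 and 121 knockout cells, the shares were 4.86% and 5.54% in controls and 17% and 24.9% in knockouts. With copied barcodes kept they were 5.25% and 17.4% in controls and 15.3% and 26.7% in knockouts, and control replicate 2 then lay above knockout replicate 1.

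The share is a product of how many cells were unprimed and how many of those were mitotic. Of cells kept, unprimed ones were 13.1% and 33.4% in controls and 37.2% and 47% in knockouts. The study used the word differently, for clusters without lineage-specific genes, and reported fewer knockout cells in all of its stem or unprimed clusters. It also reported an expansion of clusters primed for megakaryocytes and erythrocytes. Here the word means only that the lineage limits were passed, so the shares are not comparable. Among unprimed cells, mitotic ones were 37% (34.1 to 40.1) and 17.6% (14 to 21.7) in controls and 44.5% (40.4 to 48.7) and 58.1% (55.6 to 60.6) in knockouts. Both knockout libraries again lay above both control libraries, by 24 percentage points on average (p = 0.333 in the exact permutation test). With cells thinned to 2000 UMIs the difference was 24.5 points. Thinning to 5000 UMIs left out 2915 and 19 cells of the controls and 189 and 268 of the knockouts. In the cells left, the shares were 77.5% and 18.9% in controls and 49.1% and 58.8% in knockouts, and control replicate 1 then lay above both knockouts. With copied barcodes kept the shares were 39.3% and 54.5% in controls and 47.9% and 59.5% in knockouts, which overlapped, and the difference was 6.82 points. Of cells kept, mitotic cells of any lineage were 48.7% and 23.5% in controls and 47.2% and 60.2% in knockouts, and these overlapped.

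The limits on neutrophil genes bore most on the count. Elane, Mpo, Ctsg and Prtn3 over their limits excluded 83.6% and 61.1% in controls and 51.9% and 34.4% in knockouts of all mitotic cells. The Pf4 limit excluded 1.79% to 3.59%, the Car1 limit 2.02% to 2.79% and the Dntt limit 8.89% to 17.9% over the 4 libraries. Cd79a, a B lineage gene, removed 0.263% and 0.714% in controls and 7.01% and 8.93% in knockouts. With the 4 neutrophil genes not limited, an alternative added after the data were seen, the shares of cells kept were 41.1% and 18.1% in controls and 37.8% and 44.8% in knockouts. Control replicate 1 then lay between the knockout libraries, control replicate 2 stayed below them, and the mean difference was 11.7 percentage points (exact permutation p = 0.667). In a sorted and pooled sample, more cells of a kind and fewer cells of the other kinds cannot be told apart.

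**Figure D2:**
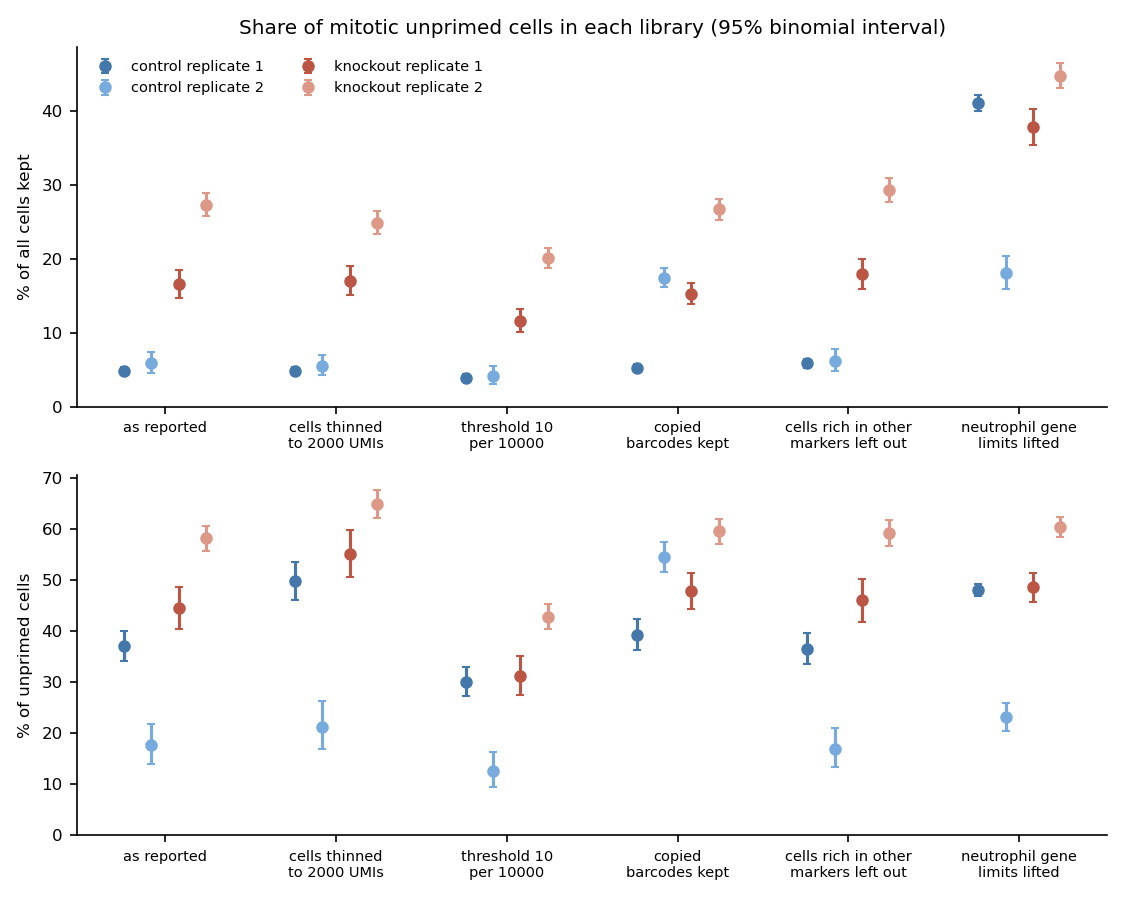
Share of mitotic unprimed cells in each library among all cells kept (upper) and among unprimed cells (lower), in percent with 95% exact binomial intervals, for the rule as used and for 5 alternatives. Among cells kept, both knockout libraries (16.6% and 27.3%) lie above both control libraries (4.84% and 5.87%) under the rule as used, and the groups overlap when copied barcodes are kept or the neutrophil gene limits are lifted.

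Set beside other unprimed cells of the same library, the members were high in mitotic genes beyond the 4 markers. These folds follow from the selection and carry no test. Spindle and cytokinesis genes, which build and resolve the mitotic spindle, were higher in members in all 4 libraries for 27 of 27 genes, with median folds of 11.6 and 12.2 in controls and 4.15 and 3.82 in knockouts. Kinetochore and spindle checkpoint genes did so for 18 of 18, with median folds of 10.1 and 12.5 in controls and 3.74 and 3.88 in knockouts. Mitotic kinases and cyclins did so for 14 of 15, with median folds of 14.9 and 12.7 in controls and 4.21 and 4.39 in knockouts. The anaphase-promoting complex and its targets stood out less, with 12 of 14 higher and median folds of 2.15 and 1.71 in controls and 1.36 and 1.26 in knockouts. The median folds were smaller in both knockout libraries than in both control libraries in each of these 4 lists. Of 11676 genes with counts in both groups of cells in all 4 libraries, 17.2% were higher in members in every library and 164 were at least 2-fold higher. Replication genes had median folds of 1.37 and 1.93 in controls and 1.01 and 0.896 in knockouts. These were below those of the spindle, kinetochore and kinase lists in all 4 libraries. In control replicate 2 the 1.93 lay above the 1.71 of the anaphase-promoting complex and its targets.

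Transcripts of late G2 and M phase were not detected in every member. Among cells thinned to 2000 UMIs, the percentage of members with at least 1 UMI of Ccnb1, Ccnb2, Cdc20, Plk1 or Aurka was 51.8 and 51.4 in controls and 50.6 and 53.8 in knockouts. These shares overlapped, while the percentage of other unprimed cells was 4.45 and 4.57 in controls and 20.9 and 20.2 in knockouts. Median UMIs of the 4 mitotic lists without the 4 markers were 34 and 35 in controls and 25 and 28 in knockouts per thinned member. Per thinned other unprimed cell they were 8 and 7 in controls and 10 and 11 in knockouts. Members of the knockout thus had fewer of these UMIs than control members, and the other unprimed cells of the knockout had more. Median UMIs of replication-dependent histones per thinned member were 10 and 7 in controls and 5 and 3 in knockouts, lower in both knockouts, and those of replication genes were 6 and 5 in controls and 6 and 6 in knockouts.

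To compare expression between the genotypes in these cells, UMIs were summed over the members of each library. They were tested by the quasi-likelihood test of edgeR, with p-values adjusted by the Benjamini-Hochberg method over 10633 genes. Controls carried no CreERT2 and the deletion reached all tissues. Nup358 loss in these cells, Nup358 loss elsewhere and Cre activity therefore cannot be told apart. At an adjusted p under 0.05, 136 genes were higher (1.28%) and 244 lower (2.29%) in the knockout, 3.57% in all, and the median log2 fold change over all genes tested was −0.01. Adjusted p-values below come from this fit, with n = 2 libraries per genotype. In other unprimed cells 658 genes were higher and 739 lower of 10921 (12.8%). The fits share the libraries and differ in depth, control replicate 2 holding 70 members and 328 other unprimed cells. Without knockout replicate 2, which held most members, 22 genes were higher and 140 lower in members.

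**Figure D3:**
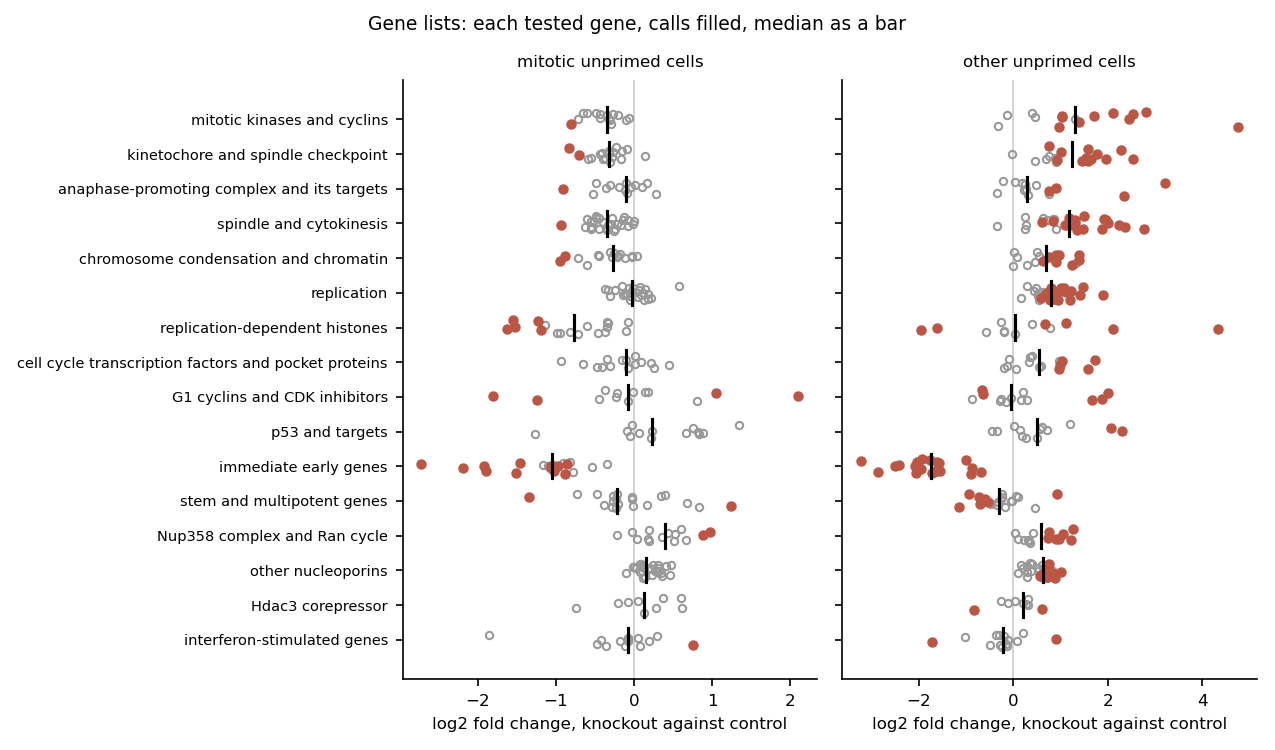
Log2 fold change of knockout against control for every tested gene of 16 lists, in mitotic unprimed cells (left) and other unprimed cells (right), with genes past an adjusted p of 0.05 filled and the median of each list as a bar. In the mitotic cells immediate early genes lie to the left (median −1.05) and the Ran cycle genes to the right (median 0.40), and the mitotic gene lists have medians below 0 on the left and above 0 on the right.

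Regulators of G1 changed in both directions. Cyclins of the D type drive cells through G1 with Cdk4 and Cdk6, and the INK4 inhibitors oppose them. Ccnd1 (cyclin D1, chromosome 7, 144929931 to 144939925 on GRCm38) had 15.4 and 7.43 CPM in controls and 54.6 and 51.5 CPM in knockouts. It rose (log2 fold change 2.11, standard error 0.24, adjusted p = 0.00310), as did Ccnd2 (cyclin D2, chromosome 6, 127125162 to 127152193), which had 94.4 and 89.9 CPM in controls and 202 and 181 CPM in knockouts (log2 fold change 1.05, standard error 0.16, adjusted p = 0.00915). In both genes the lowest knockout library lay above the highest control library. Cdkn2c, which encodes the inhibitor p18, had 29 and 23.1 CPM in controls and 9.06 and 6.63 CPM in knockouts and fell (log2 fold change −1.81, standard error 0.25, adjusted p = 0.00646). Cdkn2d, which encodes p19 of the same INK4 family, had 138 and 115 CPM in controls and 51.2 and 55.9 CPM in knockouts and fell as well (log2 fold change −1.25, standard error 0.16, adjusted p = 0.00421). These were the 2 higher and 2 lower calls among 13 genes of the list, whose median was −0.08. Ccnd3 had 202 and 172 against 144 and 146 CPM (adjusted p = 0.203), Cdk4 446 and 417 against 459 and 525 CPM (0.625) and Cdk6 664 and 512 against 573 and 545 CPM (0.861), none past the threshold. With copied barcodes kept, the adjusted p of Ccnd2 was 0.0681. The other alternatives changed no call of Ccnd1, Ccnd2, Cdkn2c or Cdkn2d.

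**Figure D4:**
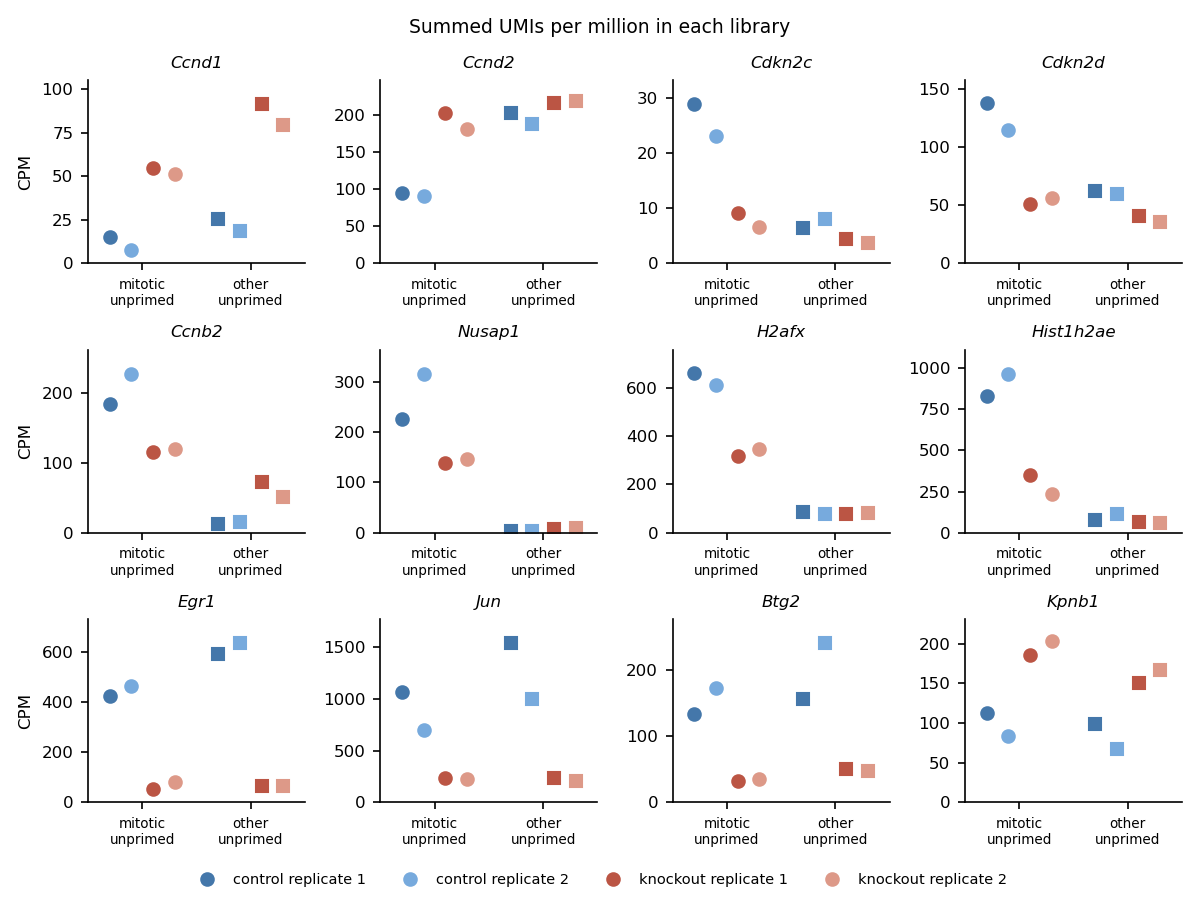
CPM of summed UMIs of 12 genes in each of the 4 libraries (colors), in mitotic unprimed cells (circles) and other unprimed cells (squares), on linear axes from 0. In mitotic cells Ccnd1, Ccnd2 and Kpnb1 are higher in both knockout libraries than in both control libraries, and the other 9 genes are lower.

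Most genes of mitosis had negative log2 fold changes in knockout members, and few passed the test. The list of mitotic kinases and cyclins had 1 gene lower of 15 and a median log2 fold change of −0.35. For the kinetochore and spindle checkpoint it was 2 of 18 (median −0.32), for the anaphase-promoting complex and its targets 1 of 14 (−0.11) and for the spindle and cytokinesis 1 of 27 (−0.34), with none higher. These genes track the 4 markers on which members were chosen, so their counts are not independent of the rule. Ccnb2, whose promoter is shown above, had 184 and 227 CPM in controls and 115 and 120.1 CPM in knockouts and fell (log2 fold change −0.81, standard error 0.18, adjusted p = 0.0346). Spc25, a subunit of the NDC80 complex that joins kinetochores to microtubules, had 116 and 109.8 CPM in controls and 65.2 and 62.3 CPM in knockouts and fell (adjusted p = 0.0173), and its partner Spc24 had 232 and 225 against 137 and 145 CPM (adjusted p = 0.0370). Fbxo5, an inhibitor of the anaphase-promoting complex, fell from 93.5 and 116 to 59.4 and 52.2 CPM (0.0245), and Nusap1, which bundles spindle microtubules, from 226 and 315 to 139 and 147 CPM (0.0350). All 5 calls were lost without knockout replicate 1 and also without knockout replicate 2 (adjusted p up to 0.374 over all alternatives). Other abundant genes of these lists did not pass. Cks2, which binds Cdk1, had 371 and 533 against 337 and 381 CPM (adjusted p = 0.425), Birc5 (survivin) 453 and 423 against 302 and 379 CPM (0.305) and Cdk1 154 and 184 against 159 and 157 CPM (0.793). Stmn1, which destabilizes microtubules, had 3259 and 3067 against 1864 and 2315 CPM (0.130).

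Cdc20, whose promoter is also shown, had 173 and 150.2 CPM in controls and 116 and 137 CPM in knockouts, lower in both knockouts without passing (adjusted p = 0.243). Further abundant genes of these lists were not called either. Cks1b, the Birc5 partner Cdca8, the centromeric histone Cenpa and the checkpoint protein Bub3 had log2 fold changes from −0.59 to −0.20 (adjusted p from 0.107 to 0.593). Ube2s, which extends ubiquitin chains for the anaphase-promoting complex, its subunit Anapc5 and its target Gmnn had log2 fold changes from −0.31 to 0.10 (adjusted p from 0.429 to 0.904). The tubulins Tubb5, Tubb4b and Tuba1b had log2 fold changes from −0.26 to 0.00 (adjusted p from 0.492 to 0.997).

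Some histone genes fell in knockout members, and no gene of DNA replication was called. Replication-dependent histones are transcribed in S phase, and most of their transcripts end without a poly(A) tail, so a poly(A)-primed assay reads them in part. In members they summed to 5104 and 3958 CPM in controls and 2521 and 1586 CPM in knockouts. Every control library lay above every knockout library. In other unprimed cells they summed to 617 and 571 against 537 and 469 CPM, with a median log2 fold change of 0.05 over 13 genes tested. In members the lowered genes were 5 of 18 tested among 20, none was higher, and the median was −0.77. The most abundant, Hist1h2ap, had 2974 and 1759 CPM in controls and 1094 and 530.3 CPM in knockouts (log2 fold change −1.55, standard error 0.32, adjusted p = 0.0305), and Hist1h2ae 829 and 966 CPM in controls and 352 and 236 CPM in knockouts (log2 fold change −1.63, standard error 0.24, adjusted p = 0.00719). Hist1h1c, a linker histone, had 109 and 108 against 51.1 and 45.2 CPM (adjusted p = 0.00514), and the less abundant Hist1h2ab and Hist1h3b had 56.6 and 24.8 against 22.7 and 15.5 CPM and 22 and 13.2 against 8.54 and 5.03 CPM (0.0411 and 0.0331). Copies of core histone genes are nearly identical, so the split of reads between them is uncertain. The abundant linker histone Hist1h1b did not pass, with 472 and 340.0 against 444 and 315 CPM (0.826), nor did Hist1h1e, with 185 and 179 against 167 and 123 CPM (0.307). Hist1h2ap was not called without knockout replicate 2, with copied barcodes kept or by DESeq2. The calls of Hist1h2ab and Hist1h3b were lost under 7 and 6 of 15 alternatives, among them these 3, leaving out control replicate 1, members chosen after thinning and thinned sums. Without control replicate 2 the median of the list was −0.30, and DESeq2 called 2 of its genes.

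Replication genes, which load the helicase and make nucleotides, had no call among 26 genes and a median of −0.02. Their sum was 3510.4 and 3181 CPM in controls and 3342 and 3357 CPM in knockouts, which overlapped. In other unprimed cells, where 12.8% of genes were called, 17 of the 26 rose in the knockout, none fell and the median was 0.79. The test of the difference between both groups of cells, which called 5.53% of genes, found 22 of 26 with a lower effect in members (median −0.80). The mitotic threshold set the border between these groups, so this difference is not independent of the rule. Of other unprimed cells, 76.8% and 70.1% in controls and 39.2% and 41.3% in knockouts had no UMI of the 4 markers, a share that depth also affects. The most abundant replication genes were Dut, which removes dUTP, the maintenance methyltransferase Dnmt1, the helicase subunit Mcm7 and the reductase subunit Rrm1. In members they had log2 fold changes from −0.02 to 0.18 (adjusted p from 0.579 to 0.975). Genes of chromosome condensation and chromatin lay between, with 2 of 16 lower, none higher and a median of −0.27. The lowered pair were histone variants with polyadenylated transcripts. H2afx, which is phosphorylated at DNA breaks, had 660.3 and 611 CPM in controls and 317 and 347 CPM in knockouts (log2 fold change −0.94, standard error 0.18, adjusted p = 0.0223), and H2afv had 853 and 767 CPM in controls and 419.5 and 465 CPM in knockouts (log2 fold change −0.88, standard error 0.19, adjusted p = 0.0334). Both calls were lost without knockout replicate 1 and also without knockout replicate 2. The list had 6 genes lower without control replicate 1. H2afz, the paralog of H2afv, overlapped at 3188 and 2945 against 2726 and 3310.0 CPM (0.957). The nonhistone proteins Hmgb2, Hmgn2 and Hmgb1 did not pass, with log2 fold changes from −0.72 to −0.18 (adjusted p from 0.104 to 0.708).

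Immediate early genes, which respond within minutes to mitogens, stress and the handling of cells, made up the largest group of lowered genes among the 16 lists. They summed to 6604 and 5820.2 CPM in controls and 2199 and 2594 CPM in knockouts. Of 20 genes, 12 fell, none rose and the median was −1.05. Egr1, a zinc finger factor of growth signals, had 426 and 465 CPM in controls and 55.1 and 79.4 CPM in knockouts (log2 fold change −2.73, standard error 0.22, adjusted p = 7.56e-04). Btg2, which restrains proliferation, had 133 and 173 CPM in controls and 31.9 and 34.7 CPM in knockouts (log2 fold change −2.19, standard error 0.20, adjusted p = 7.56e-04). The AP-1 subunits Jun and Fos had 1068 and 701 against 238 and 229.5 CPM (0.00310) and 1233 and 1251 against 380.0 and 524 CPM (0.00947). Jund, Fosb, Ier2, Dusp1, Klf6, Cd69, Nr4a2 and Nr4a1 fell too, by log2 fold changes from −1.90 (Nr4a1) to −0.86 (Dusp1). Ier2, Dusp1, Klf6 and Cd69 lost the call without knockout replicate 1, and Fosb, Klf6 and Cd69 without knockout replicate 2. Fosb, Dusp1 and Klf6 lost it with copied barcodes kept, Ier2 and Klf6 at a mitotic threshold of 10 per 10000, and Nr4a2 with members chosen after thinning to 2000 UMIs (adjusted p = 0.0642).

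Other cells showed the fall of immediate early genes as well. In other unprimed cells the list summed to 10836 and 9567 against 2385 and 2679 CPM, and 20 of 20 genes were lower (median −1.74). In mitotic cells outside the lineage limits it summed to 3961 and 3306 against 1914 and 2222 CPM. Control members thus had less of these transcripts than control other unprimed cells, while the knockout groups were near each other. The test of the difference between the groups of cells found 12 of 20 genes with a smaller fall in members, beside 5.53% of all 11187 genes called in either direction, led by Klf6 (difference 1.10 on the log2 scale) and Fos (0.92).

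**Figure D5:**
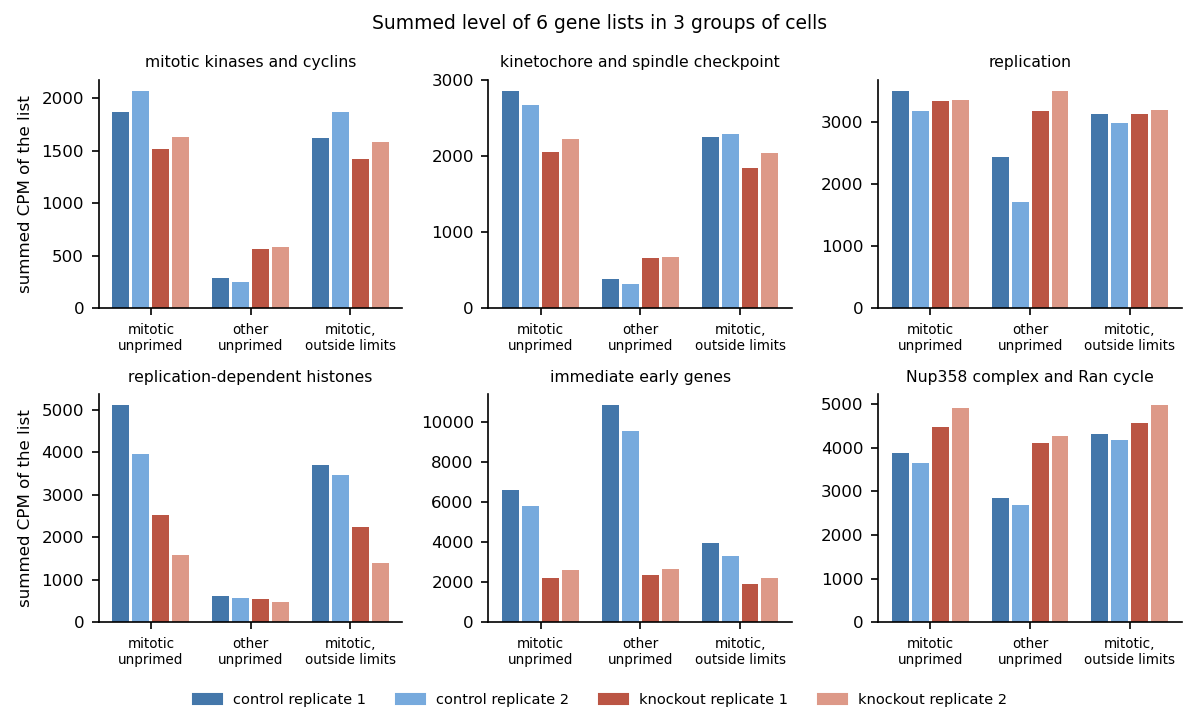
CPM of summed UMIs of 6 gene lists in each library (bars from 0, colored by library) for mitotic unprimed cells, other unprimed cells and mitotic cells outside the lineage limits. Histone transcripts and immediate early genes are lower in both knockout libraries in all 3 groups. Replication genes are level in mitotic cells (3181 to 3510.4 CPM in mitotic unprimed cells).

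Some nuclear transport genes rose. Among the Nup358 complex and the Ran cycle, 2 of 14 genes rose, none fell, 12 had a positive log2 fold change, and the median was 0.40. Kpnb1, which encodes importin beta (chromosome 11, 97159714 to 97187881), had 113 and 83.3 CPM in controls and 185 and 203 CPM in knockouts (log2 fold change 0.97, standard error 0.17, adjusted p = 0.0155). Tnpo1, which encodes transportin 1, had 48.3 and 33.8 CPM in controls and 78.6 and 76.3 CPM in knockouts (log2 fold change 0.88, standard error 0.18, adjusted p = 0.0268). Both had every knockout library above every control library, and both calls were lost without knockout replicate 2, that of Tnpo1 also without knockout replicate 1. Ran had 1296 and 1126 against 1429 and 1687 CPM (adjusted p = 0.349) and its binding protein Ranbp1 575 and 521 against 770.2 and 816 CPM (0.153). The SUMO gene Sumo2 had 711 and 818 against 778 and 809 CPM (adjusted p = 0.940). Ranbp2 itself had 119 and 111 CPM in controls and 134 and 131 CPM in knockouts (log2 fold change 0.19, standard error 0.15, adjusted p = 0.514), with the limit on its exon noted above. Of 28 other nucleoporin genes tested, none was called, 25 had a positive log2 fold change and the median was 0.16, beside −0.01 over all genes tested. The most abundant, the basket protein Tpr, the membrane protein Nup210, Ahctf1 and Rae1, had log2 fold changes from 0.08 to 0.41 (adjusted p from 0.203 to 0.822). The rise was larger in other unprimed cells, where 12.8% of all genes were called. There 7 of the 14 Ran cycle genes and 9 of the 28 nucleoporin genes rose and none fell (medians 0.58 and 0.62).

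Few stem and multipotent genes changed, with 1 higher and 1 lower of 20 (median −0.21). Procr, a surface marker of long-term stem cells, had 6.59 and 9.90 CPM in controls and 20.4 and 16.9 CPM in knockouts and rose (log2 fold change 1.24, standard error 0.30, adjusted p = 0.0483), a call lost under 9 of 15 alternatives. The abundant Myb, Meis1, Cd34 and Ly6a had log2 fold changes from −0.23 to 0.68 (adjusted p from 0.0745 to 0.974). Several genes of the megakaryocyte and erythroid lineages that the rule did not limit fell. Itga2b, which encodes integrin CD41, had 119.9 and 54.5 against 31.2 and 30.4 CPM (log2 fold change −1.55, adjusted p = 0.0114), and the platelet glycoprotein gene Gp9 36.4 and 23.9 against 11.7 and 12.9 CPM (−1.33, 0.0120). Gata1, a master factor of both lineages, had 48.7 and 38.8 against 23.2 and 16.7 CPM (−1.20, 0.0129), and Klf1, a factor of the erythroid lineage, 19.3 and 15.7 against 4.18 and 3.07 CPM (−2.36, 0.00421). These 4 genes belong to the marker lists, of which 3 of 5 megakaryocyte genes and 5 of 8 erythroid genes were lower. Pf4 and Car1 in these lists were limited by the rule and not called, and Pf4 had 11.9 and 6.60 against 18.8 and 17.9 CPM (log2 fold change 0.90). Without control replicate 1 the megakaryocyte list had 1 gene higher and 2 lower, and its median went from −1.33 to −0.42. Among the other erythroid calls, Hba-a1 and Hba-a2 were too low to test without the 32 cells rich in markers of another type. Itga2b, Gp9, Gata1 and Klf1 remained lower without those cells (adjusted p from 0.00244 to 0.00737). The erythroid list that holds Gata1 and Klf1 also chose some of the cells left out.

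Some of the lowest p-values rested on few cells. Hbb-bs, an adult beta globin, had 888 and 9325 CPM in controls and 4.01 and 7.49 CPM in knockouts (adjusted p = 0.00310). Without the 32 cells named above, chosen after the data were seen, it had 2.72 and 1.75 against 4.05 and 7.51 CPM, and the direction turned (log2 fold change 1.41, adjusted p = 0.164). Its near-identical neighbor Hbb-bt went from 302 and 2554 against 311 and 309 CPM to 75.7 and 88.6 against 314 and 310.3 CPM. It was then higher in both knockout libraries (log2 fold change 1.96). Hbb-bt leads the erythroid list, which marked cells to leave out in controls only, so no p-value is given for this rise. Ifitm6 had 18.4 and 21.5 CPM in controls and 0 and 0.675 CPM in knockouts (adjusted p = 0.00151) and 0.907 and 0.877 against 0 and 0.246 CPM without those cells, and was then too low to test. Fcer1g, an Fc receptor subunit of myeloid cells, had 84.3 and 79.2 against 31.4 and 25.7 CPM and 51.7 and 39.5 against 30.4 and 24.6 CPM without them, with adjusted p = 0.00310 and 0.0437. Of the other marker lists, 5 of 8 neutrophil genes tested fell, namely Ms4a3, S100a8, S100a9, Ngp and Camp, and the others, Mpo, Ctsg and Prtn3, were limited by the rule. Without those cells S100a8 (adjusted p = 0.00631) and Ms4a3 (0.0192) remained lower, S100a9 did not pass (0.0723), and Ngp and Camp were too low to test. The neutrophil list itself chose some of the cells left out, so these values are not independent of that choice. DESeq2 called 2 of the neutrophil genes lower. With members chosen after thinning to 2000 UMIs none was lower and 1 higher, with a median of −1.51 in place of −3.88. Of 2 basophil and mast genes tested 1 fell, Ms4a2. None was called among 5 monocyte and dendritic, 2 B lymphoid and 1 T or NK genes tested. Irf8 was lower without those cells (adjusted p = 0.0400), but its own list chose some of them. The median of the monocyte and dendritic genes was −0.62 and turned to 2.06 without control replicate 1. It was −1.05 without control replicate 2, −0.96 without knockout replicate 1 and −0.18 without knockout replicate 2. The 1 early lymphoid gene tested, Dntt, was limited by the rule.

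Over all genes tested, the smallest p-values among risen genes belonged to Ccnd1, Tcf15, Afp, Heatr3, Ccnd2, Etv5, Rrp12, Grb10, Mylk and Tgfbi. Tcf15, a bHLH factor, had 4.39 and 6.60 CPM in controls and 22 and 22.8 CPM in knockouts (log2 fold change 2.12, standard error 0.30, adjusted p = 0.00714). Etv5, an ETS factor downstream of growth factor signals, had 4.83 and 5.78 CPM in controls and 19.2 and 19.9 CPM in knockouts (log2 fold change 1.93, standard error 0.30, adjusted p = 0.00924). Afp had 8.34 and 6.60 against 25.1 and 32 CPM, Mylk 3.51 and 4.13 against 15 and 16.3 CPM, Grb10 14.9 and 11.6 against 36.4 and 31.9 CPM and Tgfbi 14.5 and 15.7 against 33.3 and 39.8 CPM (adjusted p from 0.00716 to 0.0129). Heatr3 and Rrp12, which act in ribosome assembly, had 18.9 and 16.5 against 46.2 and 42 CPM (0.00813) and 14.5 and 9.90 against 31.5 and 34.5 CPM (0.0107). In each of these genes the groups did not overlap. Tgfbi lost its call without knockout replicate 2, Rrp12 with copied barcodes kept (adjusted p = 0.166) and Etv5 with summed counts thinned to the smallest library (0.0664). Among fallen genes the smallest p-values belonged to Egr1, Ypel3, Btg2, Skil, Ifitm6, Fcer1g, Hbb-bs, Rgs1, Jun and Greb1. Ypel3 had 126 and 120.5 CPM in controls and 37.3 and 36.1 CPM in knockouts (log2 fold change −1.76, standard error 0.16, adjusted p = 7.56e-04), and Skil, a repressor of TGF-beta signaling, 94.4 and 105 CPM in controls and 24.9 and 27.3 CPM in knockouts (log2 fold change −1.92, standard error 0.17, adjusted p = 7.56e-04). Rgs1, which dampens G protein signals, had 312 and 439.8 against 104 and 98.8 CPM (0.00310) and Greb1 20.6 and 17.3 against 4.01 and 3.19 CPM (0.00336).

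The genes at the center of the study were not called. Hdac3, a histone deacetylase, had 38.6 and 33 CPM in controls and 49 and 40.2 CPM in knockouts (log2 fold change 0.29, standard error 0.18, adjusted p = 0.410). E2f1, which drives S phase genes, had 39.5 and 34.7 against 36.3 and 33.6 CPM (adjusted p = 0.779) and its partner Rb1 18 and 16.5 against 15 and 10.8 CPM (0.340). Rbl2, Dmtf1, Trp53, Spi1 and Gtf2i had log2 fold changes from −0.31 to 0.27 (adjusted p from 0.416 to 0.984). Of these, Gtf2i passed the threshold under 1 of 15 alternatives. These are transcript levels and say nothing of where the proteins were in the cell. No gene was called among 9 of the Hdac3 corepressor (median 0.13), 15 cell cycle transcription factors and pocket proteins (−0.10) and 13 of p53 and its targets (0.23). Ncor1, Hdac1, Tbl1x and Hdac2 had adjusted p from 0.229 to 0.887, and E2f4, Rbl1 and E2f8 from 0.367 to 0.873. The apoptosis genes Bax with 116 and 97.4 against 153 and 187 CPM and Aen with 31.6 and 20.6 against 45.1 and 50.1 CPM lay near the threshold (adjusted p = 0.0620 and 0.0503), and passed it under 3 and 6 of 15 alternatives. Without control replicate 1 the p53 list had 3 genes higher and 1 lower and a median of 0.48, and without the filter on low counts 4 higher and 1 lower. The corepressor list had 2 higher and 1 lower under either change. Ei24 had 36 and 28.9 against 40.8 and 36.5 CPM (0.524). Of 14 interferon-stimulated genes, Bst2, which tethers viruses to the cell surface, alone rose (173 and 129 against 280.4 and 234 CPM, adjusted p = 0.0446, list median −0.08), a call lost under 6 of 15 alternatives. Ifitm3 and Isg15 had log2 fold changes from −0.36 to 0.30 (adjusted p from 0.419 to 0.695).

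Whether the knockout effect in members differed from that in other unprimed cells was tested as an interaction with the library as a block. Of 11187 genes, 174 had a higher and 445 a lower effect in members (5.53%), and the median difference was 0.00463. Mitotic genes led the second group. Ccnb2 had 12.4 and 15.6 against 71.9 and 50.4 CPM in other unprimed cells, where it rose (log2 fold change 2.10, adjusted p = 4.10e-04), so the difference between groups of cells was −2.92. Cdc20 had 12.9 and 8.08 against 51.2 and 50.6 CPM in other unprimed cells (difference −2.69), Birc5 20.7 and 11.1 against 65.6 and 79.6 CPM (−2.66), Hmgb2 398 and 434 against 752 and 641 CPM (−1.47) and H2afz 1297 and 1029.5 against 2032 and 2229 CPM (−0.95). Markers of another cell type moved in the other unprimed cells too. There 5 of 6 monocyte and dendritic genes tested rose in the knockout and none fell, and the list of 7 summed to 423 and 282 against 714 and 601 CPM. Siglech, a marker of plasmacytoid dendritic cells, had 0.919 and 0 against 37.4 and 23.6 CPM, and the dendritic cell factor Irf8 had 26.2 and 30.5 against 114 and 82.8 CPM. The interaction test called 3 of these 6 lower in members, Siglech (−5.37), Irf8 (−2.42) and Ly6c2 (−2.83). Without cells rich in markers of another type, the differences of Ccnb2, Cdc20, Birc5, Hmgb2 and H2afz all kept their direction and passed the test. The mitotic threshold set the border between these groups of cells, so the differences of genes that track it are not independent of the rule. Ccnd2, in contrast to Ccnd1, rose in members but had 202 and 187 against 216 and 218 CPM in other unprimed cells (adjusted p = 0.496), a difference of 0.85 (adjusted p = 1.72e-04). Ccnd1 had 25.3 and 18.6 against 91.5 and 79.2 CPM there, with a difference of 0.19 (adjusted p = 0.781). Control members had less Ccnd2 than control other unprimed cells, and knockout members reached 202 and 181 CPM beside 216 and 218 CPM. In mitotic cells outside the lineage limits Ccnd2 was also higher in both knockouts, with 125 and 102 against 250 and 235 CPM. The change in those cells was not tested.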

How the data were processed

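Per the labels and methods, sorted LSK cells were processed with a 10x Genomics 3′ kit, and the authors aligned reads to mm10 (GRCm38) and counted UMIs with Cell Ranger 3.1. The deposited files hold whole-number UMI counts per gene (27998 genes) and barcode without normalization. No doublet caller was run. Cells were selected by the limits given in the report, and the members, gene lists and tests were chosen with earlier results of these data known. UMIs were summed per library over 3 groups of cells, which makes each library 1 replicate, and p-values then measure the spread between pooled libraries. Sums were tested in R 4.3.3 with edgeR 4.0.16 (filterByExpr, TMM, quasi-likelihood test, Benjamini-Hochberg adjustment over all genes tested), a simple comparison of genotypes or an interaction with the library as a block. CPM are UMIs per 1000000 of the summed cells without TMM, while fold changes include it. Shares were compared by exact permutation of libraries, with exact (Clopper-Pearson) 95% intervals. Genes were named when the rule or the study uses them, when among the 4 most abundant or called in a list, when among the 10 smallest p called each way, or when among the 5 smallest p of the interaction. Marker genes of other types and genes outside this rule were named after their values were seen. Some genes that the rule names are not reported here. DESeq2 1.42.0, another scaling, filter, block, depth, threshold or cell choice and each library left out were tried as alternatives. Gene positions are from GENCODE vM21, and promoters matched 59 genes of the 4 mitotic lists by symbol. Python 3.11.15, numpy 2.4.6, scipy 1.17.1, pandas 2.3.3 and matplotlib 3.10.9 were used.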

Additional observations from a re-analysis of the deposited data

Results flagged for a closer look

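The knockout effect differed between mitotic and other unprimed cells, by the interaction test, for these named genes (log2 difference, members minus other unprimed cells; edgeR with Benjamini-Hochberg adjustment, n = 2 libraries per genotype). Genes of mitosis and chromatin had a lower effect in members: Ccnb2 −2.92, Cdc20 −2.69, Birc5 −2.66, Nusap1 −2.47, Spc25 −1.76, Spc24 −1.73, Fbxo5 −1.72, Hmgb2 −1.47, H2afx −0.96, H2afz −0.95 and H2afv −0.91. The same held for further genes that were not called within members: Cdca8 −1.996, Cks2 −1.39, Cenpa −1.37, E2f8 −1.35, Cdk1 −1.18, Cks1b −1.17, Hmgn2 −1.08, Gmnn −0.97, Stmn1 −0.90, Tuba1b −0.83, Ube2s −0.58, Tubb5 −0.52, Hmgb1 −0.47, the linker histone Hist1h1b −2.25, the replication genes Rrm1 −1.02, Dut −0.74, Mcm7 −0.64 and Dnmt1 −0.46, and Ran −0.56. Of these, E2f8, Ube2s, Hmgb1, Mcm7 and Dnmt1 lost the call under 1 to 3 of 15 alternatives each. The histones Hist1h2ap (−1.34) and Hist1h2ae (−1.13) also had a lower effect in members, and both were called lower in knockout members. The selection of members on 4 mitotic genes bears on these values directly.

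Immediate early genes fell less in members, with Klf6 1.10, Fos 0.92, Nr4a1 0.87, Dusp1 0.70, Nr4a2 0.60, Fosb 0.59, Jun 0.57, Ier2 0.56 and Jund 0.56. Rgs1 had a difference of 0.47 (adjusted p = 0.0228), a call lost under 6 of 15 alternatives (adjusted p up to 0.233). The calls of Jun, Jund, Fosb, Ier2, Dusp1, Nr4a2 and Nr4a1 were lost under 1 to 5 of 15 alternatives each, and that of Hist1h2ae under 1. Ccnd2, with 0.85 (adjusted p = 1.72e-04), rose in members and did not pass in other unprimed cells, and this difference was not called with copied barcodes kept (adjusted p = 0.0806). Cdkn2d had −0.57 (adjusted p = 0.0290), a call lost under 6 of 15 alternatives (adjusted p up to 0.643), and it fell in both groups of cells. Ly6a had 0.68 (adjusted p = 6.13e-04), a call lost under 1 of 15 alternatives, and Myb 0.38 (adjusted p = 0.0477), lost under 10. The difference of Fcer1g (−1.06) moved with the few members that were rich in markers of another type. That of Ifitm6 (−2.73) was lost under 3 of 14 alternatives, turned under 1 more, and could not be tested without those members.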

How the results depend on the processing

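The excess of members in the knockout kept its sign under every alternative, from 9.66 to 17.6 percentage points of cells kept and 11.2 to 22 with 1 library left out. Among unprimed cells it was 5.75 to 26 and 14.3 to 33.7. Counts of genes called moved more than their direction. In members, 81 were higher and 162 lower with DESeq2, 497 and 500 without the filter on low counts, where more genes were tested, 38 and 184 with copied barcodes kept, 77 and 163 at a mitotic threshold of 10, 73 and 138 with members chosen after thinning to 2000 UMIs, 88 and 200 without the 5% deepest cells, and 96 and 148 with summed counts thinned to the smallest library. Leaving out 1 library gave 22 to 470 higher and 140 to 560 lower genes, and the lone library of a genotype was then assumed to vary like the other genotype's. The replicate number as a block gave 208 and 348 in members and 917 calls in other unprimed cells, but nothing in the labels pairs the numbers, and deviations of libraries with the same number correlated at 0.0444 over 10633 genes. Other unprimed cells had 578 calls with DESeq2, 2099 without the filter, 867 with thinned cells, 734 with thinned sums and 466 to 2842 with 1 library left out. The interaction had 206 with DESeq2, 343 with thinned cells, 327 with thinned sums and 317 to 608 with 1 library left out, and more with cells rich in markers of another type left out (859), without the filter (808) and with at least 2000 UMIs per cell (718), beside 619. The cause of these shifts was not tested. Without cells rich in markers of another type, Hbb-bs turned from −9.79 to 1.41 and the interaction of Fcer1g from −1.06 to 0.15, and with members chosen after thinning that of Ifitm6 from −2.73 to 0.45. Over named genes and alternatives in members, 1496 values kept direction and call, 74 lost the call, 21 gained it, and 54 of genes not called changed sign. Depth limits low genes most in control replicate 2, whose 70 members gave 1211809 UMIs.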
